A study of Mus musculus with 6 samples.

Results

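Translation initiation factor mRNAs were followed in mouse embryonic fibroblasts (MEFs) depleted of CNOT3 and in control MEFs. The genes were those whose symbol in the platform annotation starts with Eif and a digit, with the 4 eIF2alpha kinases Eif2ak1 to Eif2ak4 left out, and each was read at its brightest probe set that carries a single symbol. This gave 43 genes of the 18193 that could be named on the array. CNOT3 is a subunit of CCR4-NOT, the complex that shortens poly(A) tails. CNOT3-depleted MEFs (CNOT3KD) were primary fibroblasts with a floxed CNOT3 allele that had been infected with a Cre retrovirus. Control MEFs had received a mock virus, are described by the study as carrying the same floxed allele, and are labelled wild type. Both kinds of culture were selected in puromycin for 2 days and are populations of infected cells, not clones. RNA was taken at 0 h, without drug, and 6 h and 12 h after the transcription inhibitor actinomycin D (Act. D) was added. Each of the 6 conditions was read on 1 array. The time points of a culture are not replicates, so no error or p-value can be given, and every difference below is a difference between single arrays.

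In initiation, the small ribosomal subunit binds eIF3, the small factors eIF1, eIF1A and eIF5, and eIF2 with GTP and the initiator tRNA. The eIF4 proteins bring this complex to the mRNA cap, it scans to the start codon, eIF5 triggers hydrolysis of the GTP on eIF2, and eIF5B joins the large subunit. eIF2B then reloads eIF2 with GTP. The poly(A) tail takes part through the poly(A)-binding protein, which contacts the cap-bound eIF4G.

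Many mRNAs of the translation machinery start with a C that is followed by a run of pyrimidines, called a 5′ terminal oligopyrimidine (TOP) motif. RefSeq start sites (GRCm38.p6) were found for 34 of the 43 genes. A run of C and then at least 4 further C or T, read on the transcript strand from the annotated first base, was present in 2 of them, or 5.88%, against 3.01% of 27025 genes with an entry. These were Eif3f, a core subunit of eIF3, and Eif2s3x, the X-linked gene of eIF2gamma. They are shown with Eif3k, Eif5b, Eif3d and Eif2b4, which had no such run and were picked with their values known, to show starts of genes that went different ways in control MEFs under Act. D. Each line holds 15 bases before and 15 bases from the annotated start, 5′ to 3′, and capitals mark the pyrimidine run.
Eif3f, chr7:108934400-108934429, plus strand: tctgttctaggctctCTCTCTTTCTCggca
Eif2s3x, chrX:94212637-94212666, minus strand: ctgccgagcattttcCTTTTCTCTCCgagc
Eif3k, chr7:28981874-28981903, minus strand: aaaacaaccggcgctggtgctgaaagcgcc
Eif5b, chr1:37997995-37998024, plus strand: ggcgcctgggttcccacctggccggcggct
Eif3d, chr15:77970810-77970839, minus strand: gtggtagggccatttacgacagcgctggtc
Eif2b4, chr5:31193125-31193154, minus strand: cgggacccagtgcacgccggaagttgtagt
After 12 h of Act. D, Eif3f had 126% of its 0 h signal in CNOT3KD MEFs and 203% in control MEFs, and Eif2s3x had 123% and 189%. For the genes without a run, Eif3k had 121% left in CNOT3KD MEFs and 217% in control MEFs, Eif5b had 95.9% left in CNOT3KD MEFs and 22.7% in control MEFs, Eif3d had 90.4% and 29.4%, and Eif2b4 had 106% and 29.9%. Of the 32 genes with an entry and no run, 1 in CNOT3KD MEFs and 12 in control MEFs were at or under 50% after 12 h, against 18.9% and 29.7% of all named genes. At or above 150% were 0 and 7, against 13.5% and 30.5%, so genes without a run went both ways in control MEFs. These counts include the dim Eif4a3 (below), as the 1 gene in CNOT3KD MEFs and as 1 of the 7 in control MEFs. An annotated start is not a measured one, and the match is a description only.

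Signals are MAS5 values on a linear scale. They are compared for the same probe set only and never between genes. The trimmed mean of each array lay between 494 and 497, so a signal is relative to the rest of the array and can stand above 100% of its 0 h value. Scaling the arrays to 46 ribosomal protein genes lowered the median of all named genes after 12 h of Act. D to 86.3% in CNOT3KD MEFs and 58.1% in control MEFs, against 96.3% and 95.9% as deposited, so values above 100% in control MEFs hold for the deposited scale. As deposited, those 46 genes had medians of 115% left in CNOT3KD MEFs and 180% in control MEFs at 12 h. This scaling therefore lowers control values more than CNOT3KD values. The brightest 1% of probe sets held 24.4% to 26.4% of all signal in the CNOT3KD arrays and 24.5% to 34.1% in the control arrays. Cnot3 itself had 239.6 in CNOT3KD MEFs and 436 in control MEFs at 0 h on its brightest probe set, 1.82-fold lower, while on a dimmer one it was 1.11-fold higher. The sources used here do not say where these probe sets lie in the gene, so neither is a check of the deleted part. All 8 fibroblast markers were above background on all arrays, and no marker of another cell type was near background on every array. At 0 h the summed signal of 5 epithelial markers was 1248 in CNOT3KD MEFs and 691 in control MEFs, that of 4 skeletal muscle markers was 6437 and 3584, of which Acta1 alone made 6105 and 3337, that of 5 leukocyte markers was 1227 and 864, and that of 4 endothelial markers was 223 and 217. The part of these markers in the results below was not tested, and fewer cells of a type cannot be told apart from less RNA per cell.

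Signals below the 25th percentile on their array were taken as near background. Of the 43 genes, 42 were above this level on every array and were at or above the median of all probe sets at 0 h. The exception was Eif4a3, an RNA helicase of the exon junction complex, whose single-symbol probe set had 12.1, 4.56 and 3.46 in CNOT3KD MEFs at 0, 6 and 12 h, and 3.97, 10.2 and 41.8 in control MEFs. It is included in counts over 43 genes, its ratios were not interpreted, and counts over the other 42 are given beside them, with 11062 named genes of the same minimum brightness for comparison. These comparison genes share only that minimum with the 42 and were not matched to them in signal. Eif1, Eif2s1, Eif3g, Eif4g1 and Eif4e1b were not analysed here.

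At 0 h most initiation factor mRNAs were at similar levels in both cultures. More than 1.5-fold higher in CNOT3KD MEFs were 2 of 43, Eif2b4 and the dim Eif4a3, against 19.5% of all named genes, and more than 1.5-fold lower were 2, Eif5 and Eif5a2, against 15.7%. Among the 42 brighter genes this made 3 changed genes, or 7.14%, where 12.4% of the comparison genes were higher and 6.77% lower. The median log2 ratio of the 43 genes was -0.05, and that of all named genes was 0.06.

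**Figure D1:**
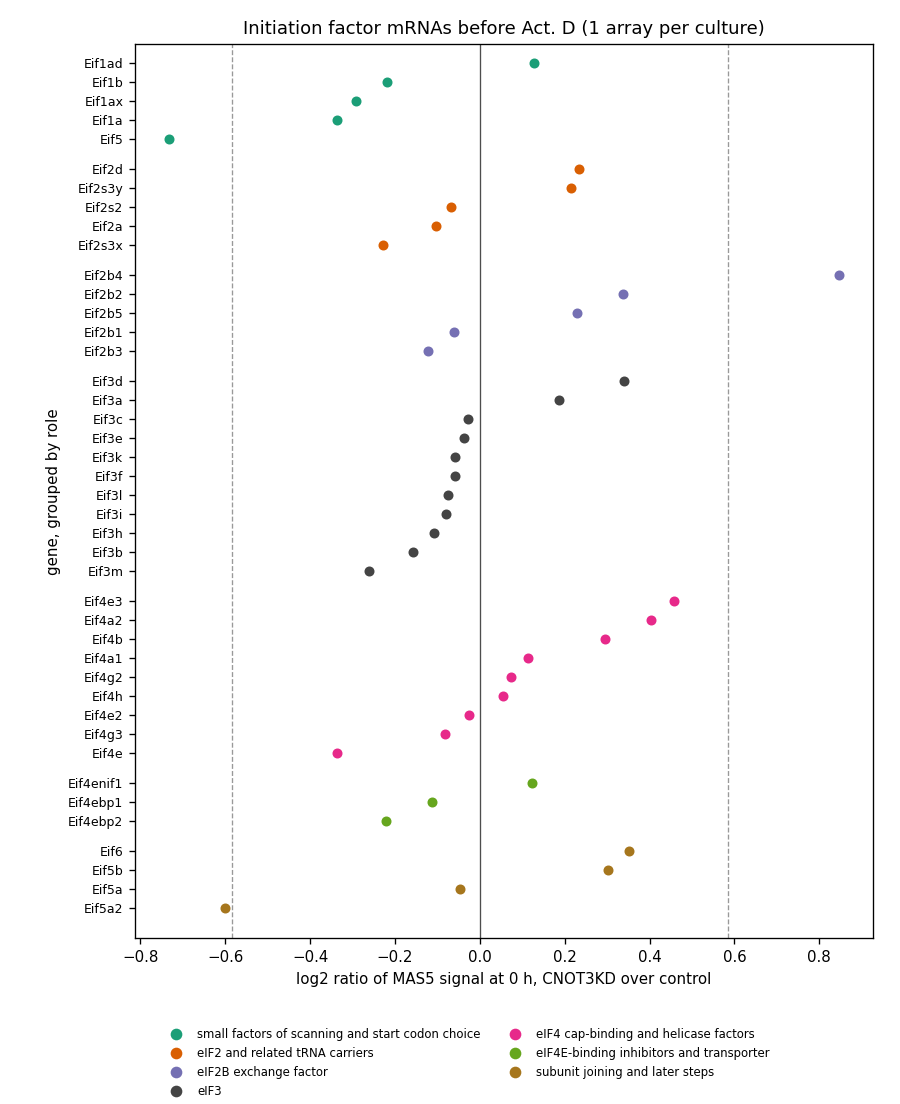
Log2 ratio of the MAS5 signal at 0 h, CNOT3KD over control, for the 42 initiation factor genes above background, grouped by role and ordered within each role. Each point is 1 gene from 1 array per culture, and the dashed lines mark 1.5-fold. Eif2b4 lies beyond the right line, Eif5 and Eif5a2 beyond the left one, and the other genes lie between them.

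Eif2b4, the delta subunit of eIF2B, had a signal of 1854 in CNOT3KD MEFs and 1030 in control MEFs, 1.80-fold higher. Eif4e3, an atypical member of the cap-binding family, followed with 329 and 239, or 1.37-fold, and Eif4a2, a helicase close to Eif4a1, with 13615 and 10289, or 1.32-fold. Eif6, which keeps free large subunits from joining small ones, was 1.28-fold higher and Eif3d 1.27-fold higher. At the other end, Eif5 had 4544 in CNOT3KD MEFs and 7557 in control MEFs, 1.66-fold lower. Its 5 probe sets gave ratios between 0.573 and 0.662, so all of them were lower in CNOT3KD MEFs. Eif5a2, the rarer relative of Eif5a, had 444 and 673, 1.52-fold lower, and its other probe set gave a ratio of 0.747. The log2 ratio of Eif5a2 was -0.51 after median scaling and -0.52 after scaling to ribosomal protein genes, short of 1.5-fold in both, while Eif5 stayed past it. Eif1a and Eif4e were each 1.26-fold lower, and Eif1ax was 1.22-fold lower.

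Larger differences between the cultures were seen under Act. D. After 12 h none of the 42 brighter genes was at or under 50% of its 0 h signal in CNOT3KD MEFs, while 15 were in control MEFs. The share of comparison genes that did so was 16.8% in CNOT3KD MEFs and 38% in control MEFs. The control count, 35.7% of the 42, was thus close to the background. In CNOT3KD MEFs Eif1a was at 47.6% after quantile normalization, and Eif1b and Eif4enif1 at 47.9% and 48.5% after scaling to ribosomal protein genes, so the absence of such genes holds for the deposited scale. Over all 43 genes the counts were 1, the dim Eif4a3, and 15, against 18.9% and 29.7% of all named genes. At or under 50% at both times were 1 of 43 in CNOT3KD MEFs, again Eif4a3, and 4 in control MEFs, namely Eif1a, Eif2b4, Eif4enif1 and Eif6. The shares of all named genes that did so were 10.8% and 18.8%, and those of the comparison genes 11.7% and 25.7%. At or above 150% after 12 h were 0 of the 43 genes in CNOT3KD MEFs and 12 in control MEFs, where all named genes had 13.5% and 30.5%. Of the 42 brighter genes the counts were 0 and 11, where the comparison genes had 3.62% and 21.7%. These counts depended on the scaling. After quantile normalization they were 2 of 43 in CNOT3KD MEFs and 5 in control MEFs, against 24.7% and 37.0% of all named genes. Median scaling gave 26 and 19, against 42.4% and 40.4%, and scaling to ribosomal protein genes gave 0 and 2, against 10.8% and 10.9%.

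The percentages left after 12 h therefore lay closer together in CNOT3KD MEFs, between 53.4% and 142%, than in control MEFs, between 6.70% and 248%. Their SD on the log2 scale over the 42 genes was 0.35 in CNOT3KD MEFs and 1.23 in control MEFs. Over the comparison genes, which also include dimmer ones, it was 0.94 and 1.5. The medians of all 43 genes were 109% in CNOT3KD MEFs and 108% in control MEFs, where all named genes had 96.3% and 95.9%. Those of the 42 brighter genes were 110% and 107%, where the comparison genes had 95.1% and 72.8%.

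**Figure D2:**
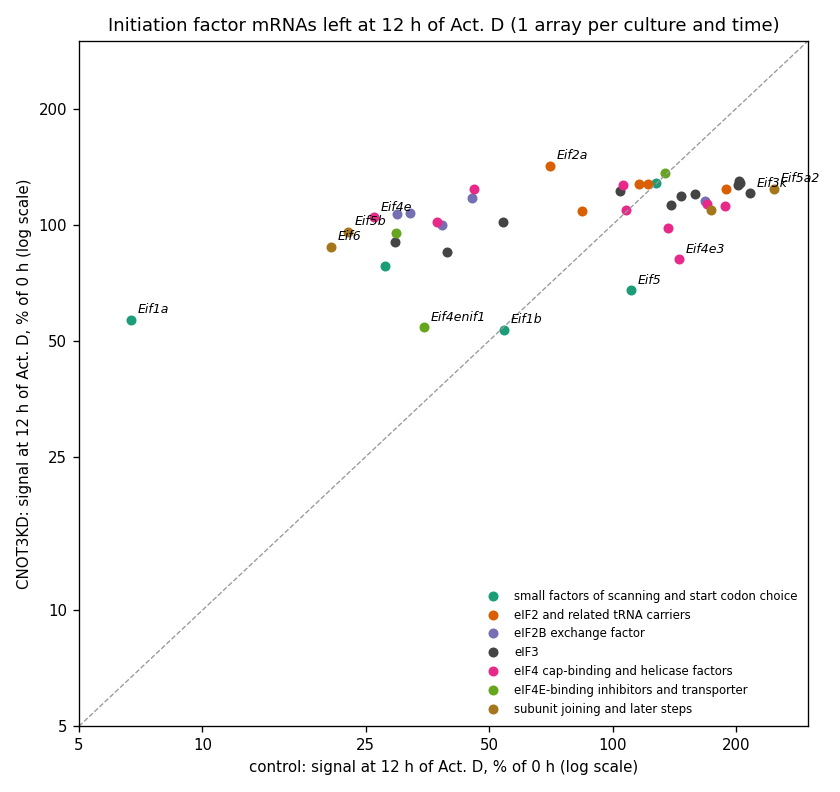
Signal at 12 h of Act. D as a percentage of the signal of that culture at 0 h, CNOT3KD on the vertical axis and control on the horizontal axis, both on log scales, for the 42 initiation factor genes above background. Each point is 1 gene, coloured by role, and the dashed line marks equal percentages. The points span 53.4% to 142% for CNOT3KD and 6.70% to 248% for control, and Eif1a stands at the far left.

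Stabilization was expressed as log2 of the fraction left in CNOT3KD MEFs over that left in control MEFs, as the mean of 6 h and 12 h. Its median was -0.02 for the 43 genes and 0.02 for all named genes. A gene was counted as stabilized if it was at or above the 0 h median, kept a 6 h signal between 0.5 and 2.0 times that at 0 h in CNOT3KD MEFs, and had at least 2 times the fraction left in control MEFs at both times. Eif1a, Eif2b4 and Eif4e met this rule, 3 of 43 genes against 6.44% of all named genes, and 3 of 42 against 10.6% of the comparison genes. After scaling to ribosomal protein genes 10 of the 43 met it, against 11.6% of all named genes. None met it with the cultures exchanged, against 0.291% of all named genes and 0.479% of the comparison genes. More was left in CNOT3KD MEFs at both times for 17 of the 43 genes and less for 17, against 38.3% and 36.6% of all named genes. Of the 42 brighter genes these were 17 and 16, against 45.7% and 35.4%. At 12 h alone, 15 of the 43 had at least 2 times the fraction left in control MEFs, against 24.3% of all named and 25.8% of comparison genes. Of these, 14 were among the 15 that were at or under 50% in control MEFs. The remaining one was Eif2a. This 12 h count was 11 of 43 after quantile normalization, against 22.8% of all named genes. It was 16 after median scaling, against 28.1%, and 17 after scaling to ribosomal protein genes, against 37.0%. As deposited, the reverse at 12 h held for 2 genes, Eif5a2 and the dim Eif4a3, against 17.9%, and among the 42 brighter genes for Eif5a2 alone, against 5.52%. In 7 of the 43 genes the signal on the deposited scale was below its 0 h value at both times in control MEFs and above it at both times in CNOT3KD MEFs. This compares with 7.57% of all named and 7.62% of comparison genes. The opposite held for 3 genes, Eif4a2, Eif4e3 and Eif5, against 7.33% and 4.16%.

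The small factors of scanning and start codon choice included the most stabilized gene. Eif1a belongs to the eIF1A family, whose product opens the small subunit for scanning. It had 4798, 3223 and 2722 in CNOT3KD MEFs at 0, 6 and 12 h, and 6062, 1282 and 406 in control MEFs. After 12 h this left 56.7% in CNOT3KD MEFs and 6.70% in control MEFs, 8.46 times as much, and its stabilization of 2.37 was the highest of the 43 genes. A second probe set gave 52.2% and 7.75%. Eif1ax, the X-linked gene of the same family, had 6781, 8327 and 8706 in CNOT3KD MEFs and 8296, 11669 and 10607 in control MEFs. Its signal was thus above 100% in both cultures at both times, with 128% left after 12 h in each. Its 2 dimmer probe sets differed from this, with 97.3% and 147% left in CNOT3KD MEFs and 238% and 176% in control MEFs, and the second of them was 2.27-fold lower in CNOT3KD MEFs at 0 h. On all of these probe sets, however, Eif1a declined in control MEFs and Eif1ax did not. Eif1b, a second eIF1 gene, had 53.4% left in CNOT3KD MEFs and 54.4% in control MEFs after 12 h. Eif1ad, named for an eIF1A domain, had 78.2% and 27.9%, but its other probe set had 24.8% and 31.5% and was 1.59-fold lower in CNOT3KD MEFs at 0 h.

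Eif5 went the other way from Eif1a. It had 4544, 3350 and 3068 in CNOT3KD MEFs and 7557, 8081 and 8383 in control MEFs, leaving 67.5% and 111% after 12 h. The CNOT3KD culture thus had less Eif5 signal on each of its arrays than any control array. All 5 probe sets had a stabilization below 0, between -0.85 and -0.23.

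On its brightest probe set, no measured eIF2 subunit declined to 50% in either culture. Eif2s2, the beta subunit, had 13996, 14537 and 15155 in CNOT3KD MEFs and 14680, 15322 and 12392 in control MEFs, with 108% and 84.4% left after 12 h, while the dimmest of its 6 probe sets had 35.3% and 92.6%. Eif2s3x had 4448, 5604 and 5492 in CNOT3KD MEFs and 5211, 8468 and 9841 in control MEFs, and all 3 of its probe sets had a stabilization below 0. Its Y-linked copy Eif2s3y had 128% and 122% left after 12 h, and Eif2d, which can deliver tRNA without GTP, had 127% and 116%. Eif2a, which encodes a separate protein that can also bring the initiator tRNA, had 142% left in CNOT3KD MEFs and 70.3% in control MEFs after 12 h.

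The eIF2B exchange factor was divided by subunit. On the deposited scale the 4 genes Eif2b1 to Eif2b4 were each at or under 50% after 12 h in control MEFs and between 99.9% and 117% in CNOT3KD MEFs. The fall to 50% did not hold for all of them on other scales. In control MEFs Eif2b1 had 61.5% and Eif2b3 62.5% left after quantile normalization, and Eif2b3 had 56.6% after median scaling. Eif2b4 had 1854, 1938 and 1973 in CNOT3KD MEFs, and 1030, 270 and 308 in control MEFs. Eif2b2, the beta subunit, had 3038, 3169 and 3248 in CNOT3KD MEFs, and 2406, 1410 and 771 in control MEFs. On these brightest probe sets of both genes every CNOT3KD signal was above every control signal. The dimmest Eif2b2 probe set did not keep this order, with 422, 433 and 434 in CNOT3KD MEFs and 456 in control MEFs at 0 h. The remaining Eif2b2 probe set did. Eif2b1, the alpha subunit, had 1085, 988 and 1084 in CNOT3KD MEFs, and 1132, 750 and 435 in control MEFs. Eif2b3, the gamma subunit, had 1503, 1695 and 1762 in CNOT3KD MEFs, and 1635, 944 and 742 in control MEFs. These 2 started at similar levels in both cultures and came apart only under Act. D.

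Eif2b5, the catalytic epsilon subunit, did not follow them. It had 1609, 2006 and 1856 in CNOT3KD MEFs, and 1373, 2042 and 2311 in control MEFs, with 115% and 168% left after 12 h. Stabilization was between 0.92 and 1.92 for Eif2b1 to Eif2b4 and -0.40 for Eif2b5. That of Eif2b5 was 0.08 after scaling to ribosomal protein genes. The 4 positive values stayed positive under quantile normalization, median scaling and scaling to ribosomal protein genes, and the lowest of them was then 0.53. The 3 probe sets of Eif2b2 ranged from 0.87 to 1.40, and the other 3 of these genes had a single probe set each.

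**Figure D3:**
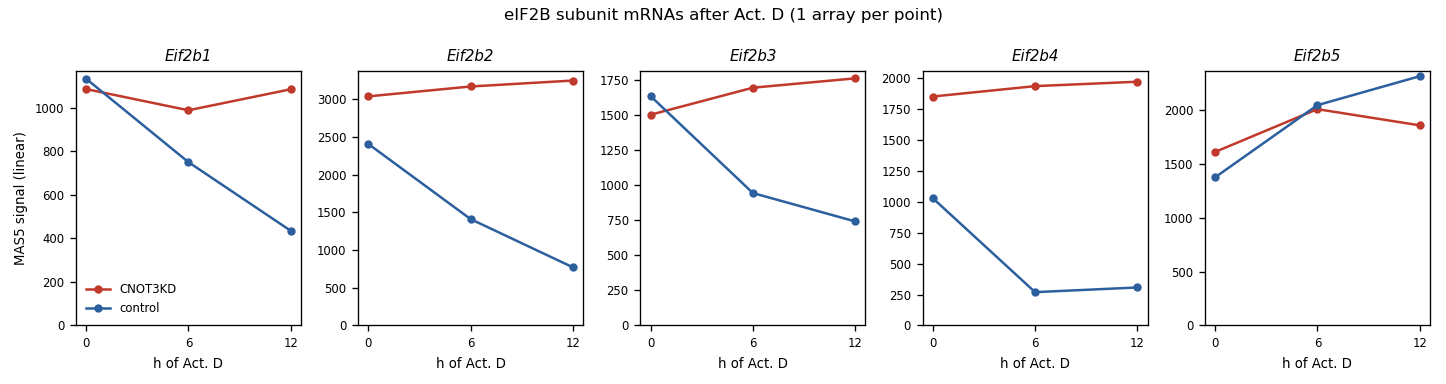
MAS5 signal (linear scale from 0, a different range in each panel) of the eIF2B subunit mRNAs against hours of Act. D in CNOT3KD (red) and control (blue) MEFs, with 1 array per point. On this deposited scale the control line of Eif2b1 to Eif2b4 declines to between 29.9% and 45.4% of its start at 12 h. The CNOT3KD line stays between 99.9% and 117%, and in Eif2b5 the control line ends at 168%.

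The 11 measured eIF3 genes also fell into separate courses. eIF3 is the large scaffold on the small subunit, and Eif3a and Eif3b encode subunits of its core. Eif3a had 19940, 19511 and 16972 in CNOT3KD MEFs, and 17512, 11624 and 6902 in control MEFs, and all 4 of its probe sets had a positive stabilization. Eif3d, whose product can contact the cap, had 6310, 6023 and 5701 in CNOT3KD MEFs, and 4984, 3054 and 1467 in control MEFs. Eif3m had 3596, 3956 and 3646 in CNOT3KD MEFs, and 4309, 3945 and 2329 in control MEFs. After 12 h these 3 genes had 85.1% to 101% left in CNOT3KD MEFs and 29.4% to 54.0% in control MEFs.

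On their brightest probe sets the other 8 genes (Eif3b, Eif3c, Eif3e, Eif3f, Eif3h, Eif3i, Eif3k and Eif3l) were all above 100% after 12 h, at 112% to 129% in CNOT3KD MEFs and 104% to 217% in control MEFs. A dimmer probe set of Eif3c had 93.5% left in control MEFs and a stabilization of 0.31, while its other 3 were below 0. One of Eif3l had a stabilization of 0.50. Eif3k had 6269, 7584 and 7562 in CNOT3KD MEFs, and 6525, 11547 and 14135 in control MEFs, so its 0 h signals were alike and its control signals under Act. D were higher than any CNOT3KD signal. Stabilization of the 8 genes was between -0.70 and 0.04, with Eif3k lowest, and was above 0 for 4 of them after scaling to ribosomal protein genes. Their position above 100% in control MEFs depended on the scaling, since 5 of the 8 were above it after quantile normalization and 4 after scaling to ribosomal protein genes, where they ranged from 63.1% to 131%. Eif3a, Eif3d and Eif3m kept a positive stabilization under each of the 3 scalings, from 0.63 to 1.61. With the median over all probe sets, which brings in dim probe sets of Eif3d and Eif3m, 1 of the 3 was negative, at -0.58. The 8 other genes then ranged from -0.70 to 2.19, the highest being Eif3h, which has probe sets near background on all arrays.

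**Figure D4:**
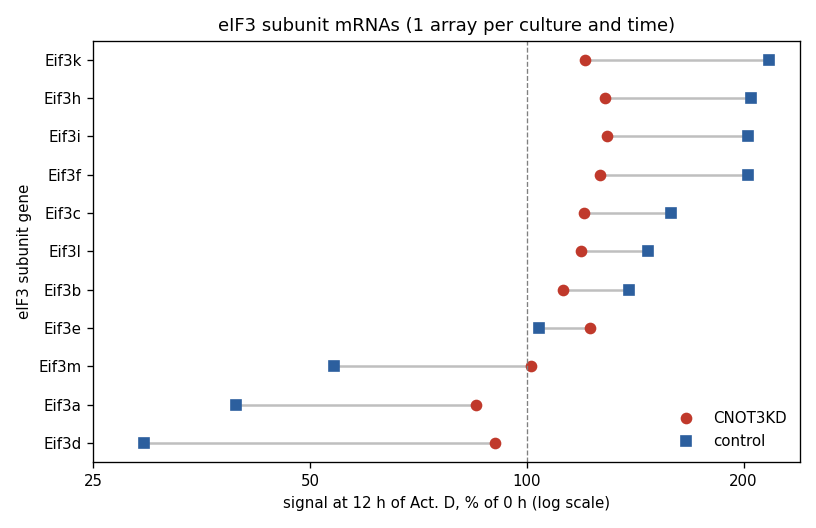
Signal at 12 h of Act. D as a percentage of the 0 h signal (log axis) for the 11 eIF3 subunit genes, with CNOT3KD as red circles and control as blue squares, 1 array per culture and time, on the deposited scale. The dashed line marks 100%. CNOT3KD circles lie between 85.1% and 129%, while control squares lie between 29.4% and 54.0% for Eif3a, Eif3d and Eif3m and between 104% and 217% for the other 8.

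Among the cap-binding proteins, Eif4e, which encodes the main protein that holds the cap, had 4526, 4943 and 4724 in CNOT3KD MEFs, and 5712, 2923 and 1494 in control MEFs. Its signal was lower in CNOT3KD MEFs at 0 h and higher there at 6 h and 12 h, with 104% and 26.2% left at 12 h. The 3 brighter of its 4 probe sets had a stabilization of 0.84 to 1.58. Eif4e2, a cap-binding relative known for repressing translation, had 3602, 4741 and 4453 in CNOT3KD MEFs, and 3667, 3282 and 1683 in control MEFs. All 5 of its probe sets had a positive stabilization, although the dimmest had 66.1% left in CNOT3KD MEFs and 71.3% in control MEFs after 12 h. Eif4e3 had 329, 309 and 267 in CNOT3KD MEFs, and 239, 324 and 347 in control MEFs. It therefore went the opposite way, with 81.2% and 145% left after 12 h, although its other probe set had a stabilization of 0.03.

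The inhibitors that bind eIF4E differed between probe sets of the same gene. On the brightest one, Eif4ebp2 had 779, 803 and 742 in CNOT3KD MEFs, and 907, 544 and 269 in control MEFs, with 95.3% and 29.7% left after 12 h, but a dimmer one had 109% and 97.9% left. Eif4ebp1 had 7260, 9429 and 9896 in CNOT3KD MEFs, and 7844, 11715 and 10516 in control MEFs, with 136% and 134% left, and its dimmest probe set had 77.0% and 37.5% left. Eif4enif1, which encodes the transporter of eIF4E to the nucleus, had 1455, 816 and 787 in CNOT3KD MEFs, and 1336, 467 and 465 in control MEFs. With 54.1% and 34.8% left after 12 h, it was together with Eif1a and Eif1b at the low end of the CNOT3KD range.

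For the helicase and its helpers, Eif4a1, the RNA helicase that unwinds the leader, had 16168, 17517 and 17604 in CNOT3KD MEFs, and 14946, 17838 and 16143 in control MEFs, and its 6 signals differed by less than 1.5-fold. Eif4a2 had 13615, 12491 and 13351 in CNOT3KD MEFs, and 10289, 10778 and 14054 in control MEFs, and its stabilization of -0.33 became 0.15 after scaling to ribosomal protein genes. The helicase cofactors had different courses on their brightest probe sets. Eif4b had 8176, 8704 and 8300 in CNOT3KD MEFs, and 6665, 5305 and 2494 in control MEFs, leaving 102% and 37.4%, while its 2 dimmer probe sets left 108% and 143% in CNOT3KD MEFs and 65.7% and 97.3% in control MEFs. Eif4h had 13704, 15851 and 17360 in CNOT3KD MEFs, and 13187, 15593 and 13972 in control MEFs, leaving 127% and 106%.

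**Figure D5:**
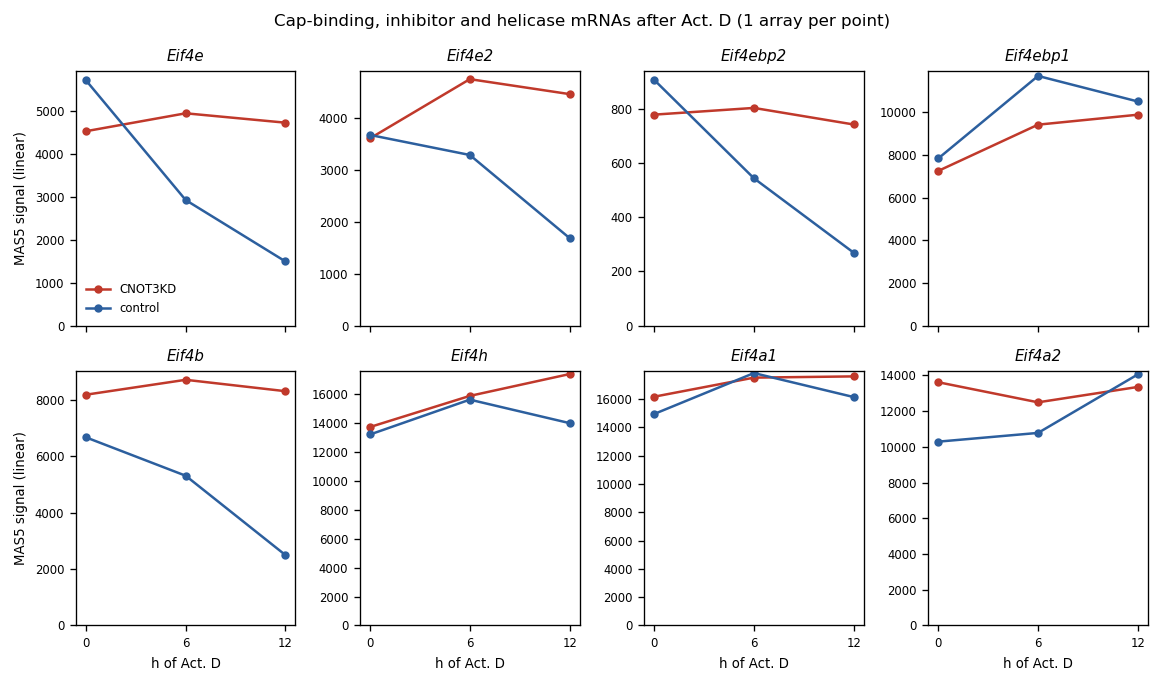
MAS5 signal (linear scale from 0, a different range in each panel) of cap-binding, inhibitor and helicase mRNAs, each at its brightest probe set, against hours of Act. D in CNOT3KD (red) and control (blue) MEFs, with 1 array per point. The control line declines to 26.2% for Eif4e, 45.9% for Eif4e2, 29.7% for Eif4ebp2 and 37.4% for Eif4b at 12 h, where the CNOT3KD line stays between 95.3% and 124%, and on this deposited scale both lines end above 100% for Eif4ebp1, Eif4h and Eif4a1.

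On their brightest probe sets the scaffold relatives had lower percentages left in CNOT3KD MEFs. Eif4g2, an eIF4G-like protein without the eIF4E-binding site, had 19317, 20043 and 21532 in CNOT3KD MEFs, and 18365, 30166 and 34502 in control MEFs. Its 4 brighter probe sets all had a stabilization below 0. Eif4g3 had 1985, 2391 and 2249 in CNOT3KD MEFs, and 2101, 3011 and 3576 in control MEFs, leaving 113% and 170% after 12 h, and its stabilization of -0.42 became 0.06 after scaling to ribosomal protein genes. A dimmer Eif4g3 probe set left 142% in CNOT3KD MEFs and 118% in control MEFs, with a stabilization of 0.08.

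Of the factors of subunit joining and later steps, Eif5b and Eif6 declined in control MEFs. Eif5b had 1430, 1374 and 1371 in CNOT3KD MEFs, and 1160, 747 and 263 in control MEFs, 4.23 times as much left in CNOT3KD MEFs after 12 h, and 2.11 times on a dimmer probe set. Eif6 had 5028, 4770 and 4394 in CNOT3KD MEFs, and 3940, 1878 and 811 in control MEFs, 4.25 times as much left. On these probe sets the lowest CNOT3KD signal was above the highest control signal. The dimmest Eif5b probe set did not keep this order, with 258, 307 and 258 in CNOT3KD MEFs and 286 in control MEFs at 0 h. The other probe set of Eif6 had 359, 233 and 173.5 in CNOT3KD MEFs, and 391, 111 and 156 in control MEFs, with 1.21 times as much left and overlapping signals. On the brighter probe set the ratio for Eif6 at 6 h was 1.99, just under the 2 times of the stabilized rule. Eif5a, the hypusine-bearing factor that also helps elongation, had 21002, 22483 and 22914 in CNOT3KD MEFs, and 21697, 32414 and 37753 in control MEFs. Eif5a2 had 444, 510 and 549 in CNOT3KD MEFs, and 673, 1265 and 1666 in control MEFs, leaving 124% and 248%, and its stabilization of -0.86 was the lowest of the 42 brighter genes.

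By role, the median stabilization was 1.17 for eIF2B, 0.66 for the eIF4E-binding proteins, 0.38 for subunit joining and later steps, 0.27 for the scanning factors, -0.02 for eIF2 and related carriers, -0.20 for the eIF4 cap-binding and helicase factors and -0.33 for eIF3. The last 3 turned with the scaling, to 0.47, 0.28 and 0.15 after scaling to ribosomal protein genes, and the eIF4 median also after quantile normalization, to 0.23. Without the dim Eif4a3 the eIF4 median on the deposited scale was -0.06, close to that of eIF2. The roles held between 3 and 11 genes each. Of the 28 members with at least 2 brighter probe sets, 20 had all of them on the same side of 0 in stabilization, and 17 had all of them on the same side of 1 in the 0 h ratio.

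Other genes of translation were read by the same rules. Of all named genes 19.5% were higher at 0 h, 15.7% lower and 6.44% stabilized. Of those at or above the 0 h median these were 12.4%, 6.77% and 10.6%. None of 4 kinases of eIF2alpha was past 1.5-fold at 0 h, and Eif2ak3, the kinase of the endoplasmic reticulum, was at or under 50% at both times in both cultures, with 46.6% left in CNOT3KD MEFs and 8.27% in control MEFs after 12 h. Of 18 partners and regulators of initiation, 2 were higher and 1 lower at 0 h and 4 were stabilized, against 19.5%, 15.7% and 6.44% of all named genes. The 2 with the highest stabilization, Pdcd4 at 3.29 and Denr at 2.59, are given as examples. Pdcd4, an inhibitor of eIF4A, had 1665, 1657 and 1782 in CNOT3KD MEFs, and 956, 128 and 79.8 in control MEFs. Denr, which acts in reinitiation and recycling, had 4374, 4426 and 3940 in CNOT3KD MEFs, and 5533, 1836 and 417 in control MEFs. The kinases of eIF4E, Mknk1 and Mknk2, were the other 2 stabilized genes. Among 8 elongation genes 1 was higher at 0 h and 1 stabilized, and among 6 genes of termination and recycling there was none of either.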

How the data were processed

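RNA of CNOT3KD and control MEFs at 3 times was hybridized to Affymetrix Mouse Genome 430 2.0 arrays, 1 per condition. The deposited intensity values are MAS5 signals that the authors computed for 45037 probe sets. The MAS5 version and scaling target are not stated in the labels or the methods. The platform annotation gave 1 symbol for 34945 probe sets, several for 932 and none for 9160. Signals under 1 were set to 1, and genes were read at the single-symbol probe set brightest by mean log2 signal over the 6 arrays. With 1 array per condition no test, error or p-value was possible, and precision is limited by the number of arrays. The genes, lists, roles and rules were chosen with earlier results of these data known. Named with values were members fixed by role, the 5 highest and 5 lowest at 0 h, and the 8 most and 5 least stabilized. Alternatives were 3 scalings (46 ribosomal protein genes in one), a floor of 16, other thresholds, and other choices of probe set. Counting steps were tested on simulated data. Python 3.11.15, pandas 2.3.3, numpy 2.4.6 and matplotlib 3.10.9 were used.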

Additional observations from a re-analysis of the deposited data

Results flagged for a closer look

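On the deposited scale some members moved in opposite directions in the cultures, a difference that was not tested. Below their 0 h signal on both Act. D arrays of control MEFs and above it on both of CNOT3KD MEFs were Eif2b2 (stabilization 1.28), Eif2b3 (1.17), Eif2b4 (1.92), Eif3m (0.59), Eif4b (0.93), Eif4e (1.55) and Eif4e2 (0.99), 7 of 43 genes, where 7.57% of all named genes did so. Above it in control MEFs and below it in CNOT3KD MEFs were Eif4a2 (-0.33), Eif4e3 (-0.68) and Eif5 (-0.63), 3 of 43, against 7.33%.

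Probe sets that the annotation gives to several genes were outside the comparisons. The one shared by Eif4a3 and Gm5576 had 4757, 5340 and 5143 in CNOT3KD MEFs, and 4259, 2604 and 894 in control MEFs, so the fraction left at 12 h was 5.15 times that of control. For a probe set of Eif3j1 and Eif3j2 this ratio was 2.63, and for the one of Ankhd1 and Eif4ebp3 it was 2.29.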

How the results depend on the processing

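No paired analysis was possible because each condition had 1 array and the labels give no replicate numbers. Quantile normalization gave medians left at 12 h of 102% in CNOT3KD and 75.7% in control MEFs and a median stabilization of 0.22. Median scaling gave 156%, 135% and 1 gene lower at 0 h, Eif5, with Eif5a2 lost. Scaling to ribosomal protein genes, which shifted the median stabilization of all genes by 0.48, gave 97.8%, 65.5%, a median stabilization of 0.47, the same 1 gene lower at 0 h, 14 fallen at both times in control and 10 stabilized, against 11.6% of all named genes. The median over all probe sets gave 4 higher, 4 lower, a median log2 ratio at 0 h of -0.16 and a median stabilization of 0.30. The higher ones were Eif2b4, Eif2s3y, Eif3m and the dim Eif4a3, and the lower ones Eif2b5, Eif3h, Eif3l and Eif5. All of these except Eif2b4 and Eif5 have probe sets below the 0 h median, so the extra genes were not interpreted. A floor of 16, or leaving out dim Eif4a3, gave 1 higher and 0 fallen in CNOT3KD MEFs. Thresholds of 2-fold, 25% and 1.5 times gave 1 higher, the dim Eif4a3, and 0 lower. They gave 0 and 1 fallen in CNOT3KD and control MEFs, 10 stabilized and 2 with the cultures exchanged. Counting 12 h alone, chosen after seeing the data, gave 15 fallen in control MEFs, 15 stabilized and 2 exchanged. Among all named genes, the higher share of those past 1.5-fold was 55.4% as deposited, 58.6% after quantile normalization, 62.6% after median scaling and 61.8% after ribosomal protein scaling. Among the 42 brighter genes, no 0 h ratio past 1.5-fold and no stabilization of 1 or more changed sign under the alternatives. Smaller values did: scaling to ribosomal protein genes turned the stabilization of Eif1ax, Eif2b5, Eif2d, Eif2s3y, Eif3b, Eif3c, Eif3l, Eif4a1, Eif4a2, Eif4ebp1 and Eif4g3 positive. Quantile normalization did so for Eif1ax, Eif3c, Eif4a1, Eif4a2 and Eif4ebp1, and median scaling for Eif2d and Eif2s3y. The median over all probe sets turned Eif2b5, Eif2d, Eif3h, Eif3l, Eif4ebp1 and Eif4g3 positive, and Eif3e and Eif3m negative. With single arrays, a ratio near 1 cannot be told from no change.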
